A study of Mus musculus with 16 samples.

Results

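The 10 receptor genes for lipid messengers studied here, S1pr1, S1pr2, S1pr3, S1pr4, Gpr183, Cnr2, P2ry10, P2ry10b, Gpr34 and Gpr174, were measured by RNA sequencing in 16 mouse libraries. They were taken by gene symbol from a table of 24562 genes, and all 10 were present, each represented by its transcript of highest total count. The receptors were listed as genes of B cells with results of these data already known, so their levels are given as a description. All mice were of the ApoE-/- strain, which lacks apolipoprotein E and is prone to atherosclerosis. B1b cells, an innate-like B cell subset that was sorted from the peritoneal cavity as low in B220, high in IgM and low in CD5, gave 3 wt and 3 cre libraries, and whole aortas gave 5 wt and 5 cre libraries. Here wt stands for wild type and cre for mice whose B cells were made deficient in CD40, through which B cells receive T cell help. The labels name no Cre driver, age, sex or diet, and leave it unsaid whether each library is 1 animal. The p-values therefore speak of spread among libraries, which may be technical.

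These receptors let lymphocytes read gradients of lipids and so choose where to stay. Sphingosine 1-phosphate, abundant in blood and lymph, is sensed by the S1pr receptors: S1pr1 draws lymphocytes out of tissue, while S1pr2 holds cells in place and, with S1pr3, also acts in the vessel wall. Gpr183 follows oxysterols made from cholesterol, Cnr2 is the cannabinoid receptor of immune cells, and P2ry10, Gpr34 and Gpr174 respond to lysophosphatidylserine, a phospholipid that has lost a fatty acid. P2ry10b is a paralogue of P2ry10 beside it on the X chromosome.

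The sorted cells carried the B cell markers. The summed level of 7 B cell markers ran from 7370 to 7990 CPM in B1b cells and from 40.5 to 134 CPM in aortas, where CPM is the count scaled to library size after TMM normalization. Smooth muscle markers ran from 11.9 to 17.7 CPM in B1b cells and from 8510 to 22700 CPM in aortas. The 8 T cell markers summed to 828 to 991 CPM in B1b cells and to 27.5 to 83.9 CPM in aortas. Cd2, which B cells also carry, made up most of that sum in B1b cells at 809 to 974 CPM, Lck ran from 13.9 to 19.6 CPM, and Cd3d, Cd3e and Cd3g of the T cell receptor complex were at or below 3.56 CPM. Markers of macrophages, which share the peritoneal cavity with B1b cells, summed to 128 to 254 CPM in wt and to 315 to 359 CPM in cre B1b cells. Cd40 stood at 36.8 ± 2.7 CPM in wt and 32.8 ± 4.65 CPM in cre B1b cells (SD, n = 3 each). Its 95% interval of the log2 fold change, from -0.45 to 0.13, includes 0, and the table gives no exon counts, so these values do not check the cre label. B1b libraries held 6815829 to 9911226 counts and aortic libraries 1645926 to 7300894.

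P2ry10, P2ry10b and Gpr174 lie in a row on chromosome X in mm10, with no other protein-coding RefSeq gene between them. P2ry10 spans 107088492 to 107104974, P2ry10b starts 43952 bases further on and spans 107148927 to 107173661, and Gpr174 spans 107255878 to 107296771, all on the forward strand. The coding sequences of P2ry10 and P2ry10b were identical at 794 of 978 aligned bases (81.2%). Of the 2995 stretches of 50 bases in the P2ry10b transcript, 113 also occurred in that of P2ry10, so most of each transcript can be told from the other at that length. The windows from 250 bases before to 50 bases after a RefSeq start (GRCm38.p6) are shown for this pair because 1 of the 2 windows of P2ry10 and 1 of the 3 of P2ry10b hold the same run of 9 bases. A window of Cnr2 is shown for its octamer, the motif of OCT factors. Capitals mark the matches.
P2ry10, chrX:107089083-107089382, forward strand: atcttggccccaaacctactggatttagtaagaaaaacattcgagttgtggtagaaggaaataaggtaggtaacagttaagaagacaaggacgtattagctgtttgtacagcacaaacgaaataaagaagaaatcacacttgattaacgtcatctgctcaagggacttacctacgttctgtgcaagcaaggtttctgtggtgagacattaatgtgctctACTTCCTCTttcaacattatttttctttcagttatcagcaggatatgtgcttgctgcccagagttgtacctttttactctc
P2ry10b, chrX:107149365-107149664, forward strand: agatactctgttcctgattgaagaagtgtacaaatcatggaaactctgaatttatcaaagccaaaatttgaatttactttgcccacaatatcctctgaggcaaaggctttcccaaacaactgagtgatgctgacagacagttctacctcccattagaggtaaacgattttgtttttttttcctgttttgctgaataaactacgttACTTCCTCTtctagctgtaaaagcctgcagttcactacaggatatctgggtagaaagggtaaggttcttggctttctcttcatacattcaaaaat
Cnr2, chr4:135894939-135895238, forward strand: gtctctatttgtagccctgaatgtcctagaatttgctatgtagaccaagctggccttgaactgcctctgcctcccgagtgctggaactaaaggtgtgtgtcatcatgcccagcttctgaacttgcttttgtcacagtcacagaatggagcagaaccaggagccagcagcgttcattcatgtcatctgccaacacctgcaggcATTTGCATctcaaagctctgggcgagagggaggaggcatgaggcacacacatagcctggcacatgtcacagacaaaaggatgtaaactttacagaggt

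The run ACTTCCTCT is the reverse complement of AGAGGAAGT, a form of the ETS motif, and ends 23 bases before 1 annotated start of P2ry10 and 37 bases before 1 annotated start of P2ry10b. The transcripts whose counts are used here begin further upstream in GENCODE, at 107089278 for P2ry10 and 107148927 for P2ry10b, so the run lies downstream of those starts. Searched on both strands, AGAGGAAGT was found in 330 of 32851 windows of this length over all genes and in 2 of 12 windows of the receptors. The octamer ATTTGCAT was found in 1.74% of all windows and in 1 of the receptors' windows, where it ends 41 bases before a start of Cnr2. An NF-kB motif was found in 1.63% of all windows and in 0 of the receptors' 12. These motifs, which do not overlap in the windows shown, were chosen after the sequences had been seen, and a match shows only that the letters are there. S1pr1 and Gpr34 had no window in the table.

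Between B1b cells of the 2 genotypes the question was which receptors differ when B cells lack CD40. P2ry10b alone of the 10 passed the threshold, and it was higher in cre. Its level was 72.4, 79.9 and 86.5 CPM in the wt libraries and 119.2, 128.4 and 114.6 CPM in the cre libraries. Every cre library stood above every wt library. The means were 79.6 ± 7.04 and 120.7 ± 7.01 CPM (SD, n = 3 each). On the log2 scale cre exceeded wt by 0.60 (standard error 0.10), with 0.40 and 0.80 as the 95% bounds, and the edgeR adjusted p over 11732 genes was 0.00411. By p-value P2ry10b ranked 12 among those genes. Of all genes tested 0.707% passed, 0.486% as higher and 0.222% as lower, against 1 higher and 0 lower of the 10 receptors. Of the 10, 6 had a log2 fold change above 0, as had 49.1% of all genes, and the receptors' median was 0.02.

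The call of P2ry10b held whichever of the 6 libraries was dropped, with edgeR adjusted p between 0.00181 and 0.0261, and in 8 of 9 other settings. It ended when the contrast was taken from a fit over all 16 libraries, which shares its estimate of spread with the aortas (log2 fold change 0.59, edgeR adjusted p = 0.87).

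P2ry10, the neighbour and closest relative, did not pass. It stood at 203.7, 214.9 and 216.7 CPM in wt and 260.3, 225.0 and 213.4 CPM in cre. The groups overlapped, and the log2 fold change was 0.14 with a 95% interval from -0.04 to 0.31 (edgeR adjusted p = 0.517). The number of P2ry10b counts per P2ry10 count was 0.355, 0.372 and 0.399 in wt libraries and 0.458, 0.571 and 0.537 in cre libraries. This ratio, which needs no scaling between libraries, was higher in each cre library than in each wt library, with means of 0.375 ± 0.022 and 0.522 ± 0.058 (SD, n = 3 each). The exact permutation test gave p = 0.1 (two-sided), the smallest that 3 against 3 libraries allow. It was added after the values had been seen.

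Most of the macrophage markers tested moved in the same direction as P2ry10b. Csf1r, through which macrophages receive their growth factor, stood at 8.47 ± 1.65 CPM in wt and 17.0 ± 2.29 CPM in cre (SD, n = 3 each) and passed as higher (edgeR adjusted p = 0.0357). Of 10 macrophage and monocyte markers 9 were tested and 1 passed, against 0.707% of all genes. Of the 9, 7 lay above 0, and their median of 0.88 compares with -0.005 over all genes. Adgre1 at -0.28 and Timd4 at -0.49 lay below 0 without passing (edgeR adjusted p = 0.578 and 0.755). Lyz2, the marker of highest level, stood at 100.7 ± 42.2 CPM in wt and 207 ± 30.7 CPM in cre (SD, n = 3 each). Among 8500 protein-coding genes with a mean of at least 10 CPM, the 3 whose log2 CPM followed P2ry10b most closely over the 6 B1b libraries were Prkar2b, Csf1r and Wdr43 (Pearson r = 0.996, 0.992 and 0.991). These 6 points also differ in genotype, and the closest genes of each of the 9 receptors examined reached r from 0.972 to 0.998. In the aortas the macrophage markers summed to 2290 to 5950 CPM, and P2ry10b there was at or below 4.93 CPM. The part of macrophages in the rise of P2ry10b was not tested.

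**Figure D1:**
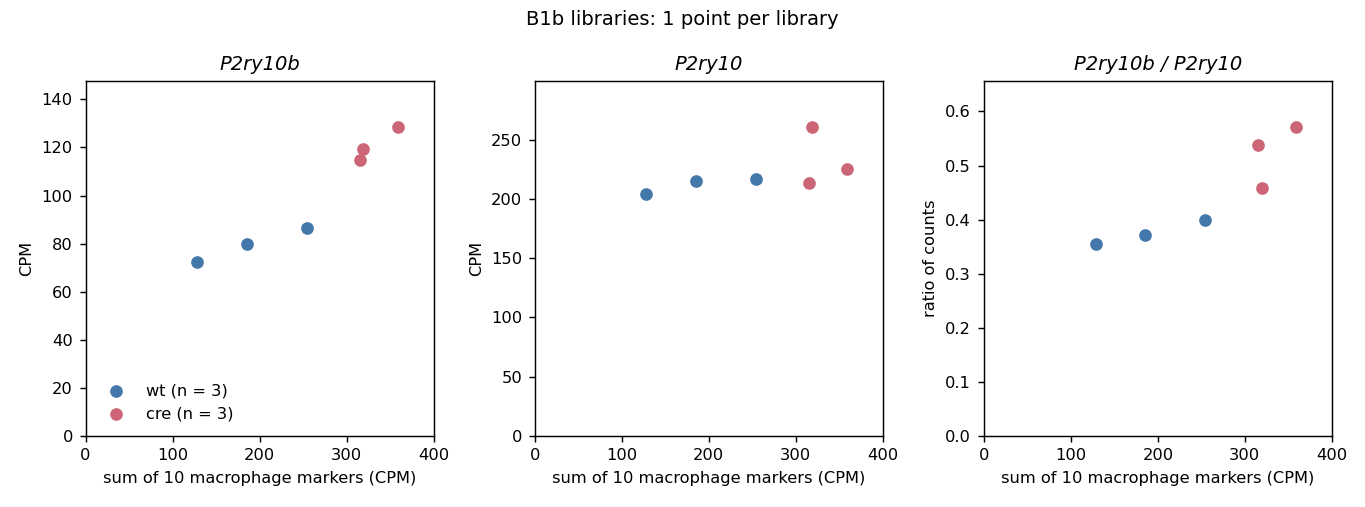
Each point is 1 B1b library, with the sum of 10 macrophage markers (CPM) on the horizontal axis and, from left to right, P2ry10b (CPM), P2ry10 (CPM) and the ratio of their counts on vertical axes that start at 0. The 3 cre libraries lie at 114.6 CPM or more of P2ry10b and at 315 CPM or more of macrophage markers, above the 3 wt libraries in both, while P2ry10 overlaps between the groups.

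The other lysophosphatidylserine receptors had log2 fold changes above 0 in B1b cells without passing. Gpr174, which restrains lymphocyte responses, stood at 42.7, 44.7 and 68.4 CPM in wt and 66.6, 62.0 and 58.4 CPM in cre. Wild-type replicate 3 lay above each cre library and the other 2 wt libraries lay below them. The log2 fold change was 0.26 (95% interval from -0.06 to 0.58, edgeR adjusted p = 0.499). Leaving out 1 library moved it between 0.14 without wt replicate 1 (edgeR adjusted p = 0.874) and 0.52 without wt replicate 3 (edgeR adjusted p = 0.0538).

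Gpr34, a receptor best known from microglia and other myeloid cells, was low, at 1.49, 5.27 and 4.68 CPM in wt and 5.25, 4.84 and 8.88 CPM in cre. The groups overlapped, and the interval of its log2 fold change of 0.73 ran from -0.13 to 1.59 (edgeR adjusted p = 0.469). Leaving out 1 library moved it between 0.36 and 1.03. Behind these values were 11 to 88 counts per library.

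Among the sphingosine 1-phosphate receptors, S1pr1 had the highest level and differed least between the genotypes. It stood at 535.8, 626.5 and 583.3 CPM in wt and 546.4, 634.3 and 590.2 CPM in cre. The log2 fold change was 0.02 with a 95% interval from -0.15 to 0.19 (edgeR adjusted p = 0.947). S1pr4, a receptor of blood cells, stood at 137.2, 121.8 and 132.3 CPM in wt and 123.9, 92.8 and 133.8 CPM in cre. Cre replicate 2 was lowest and the groups overlapped (log2 fold change -0.16, interval from -0.39 to 0.08, edgeR adjusted p = 0.602).

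S1pr3 and S1pr2 were scarce in B1b cells. S1pr3, which marginal zone B cells use, was at 18.8, 9.51 and 9.58 CPM in wt and 6.47, 6.60 and 9.99 CPM in cre. Wild-type replicate 1 stood apart from the other wt libraries, and cre replicate 3 lay above both of those. The log2 fold change of -0.70 (interval from -1.30 to -0.10) missed the threshold over all genes (edgeR adjusted p = 0.304). It was -0.30 without wt replicate 1. S1pr2 had 12 to 42 counts per library, a range of 1.76 to 4.36 CPM over both genotypes, and an interval from -1.24 to 0.62.

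Gpr183, which guides B cells along oxysterols, was lower in each cre library than in each wt library without passing the test. It stood at 174.5, 194.9 and 170.4 CPM in wt and 150.4, 164.0 and 153.3 CPM in cre. The log2 fold change was -0.21 with a 95% interval from -0.38 to -0.03 (edgeR adjusted p = 0.291). Groups that do not overlap were found for 9.71% of all genes in the higher and 8.66% in the lower direction, against 1 receptor, P2ry10b, and 1 receptor, Gpr183. Cnr2 stood at 69.7, 60.9 and 67.2 CPM in wt and 69.2, 55.3 and 76.3 CPM in cre, with overlapping groups and an interval of the log2 fold change from -0.21 to 0.26.

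**Figure D2:**
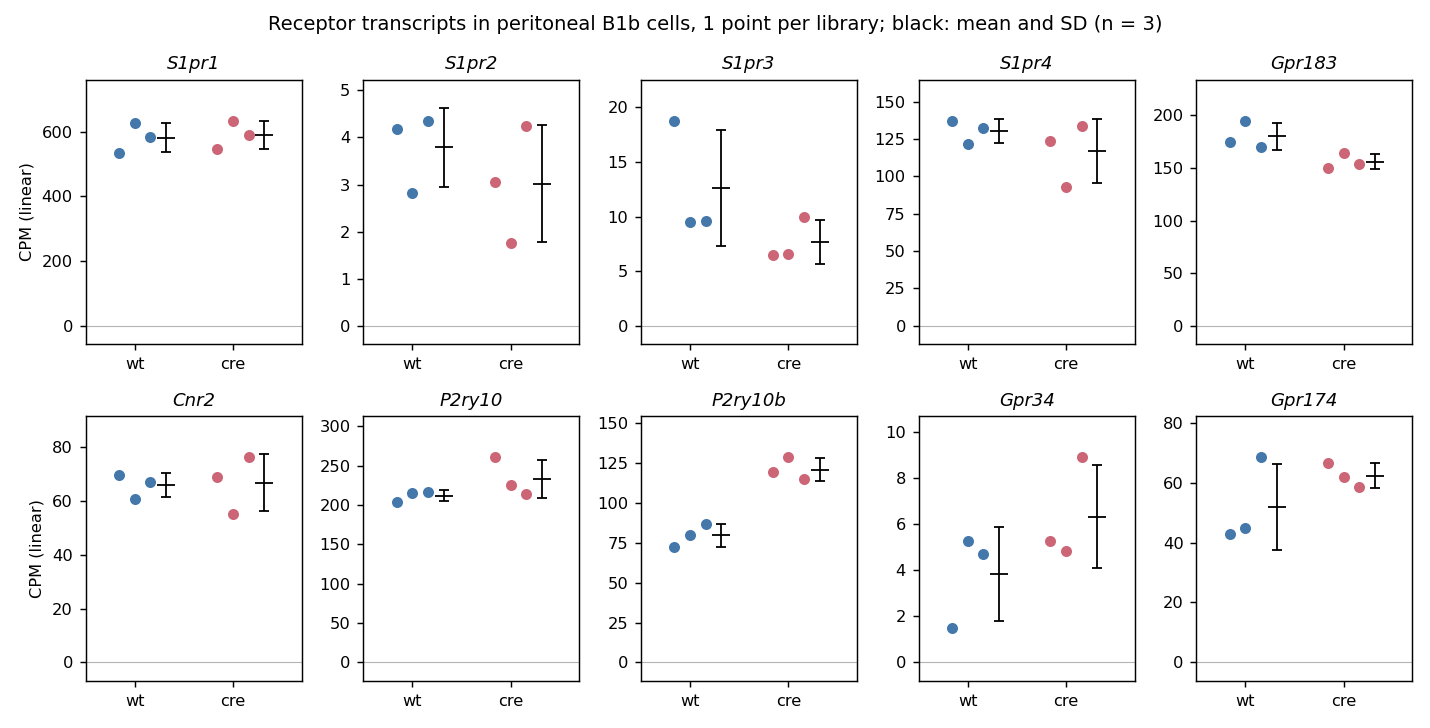
Each panel shows 1 receptor in B1b cells, with CPM on a linear axis that includes 0, 1 point per library in blue (wt) and red (cre), and the mean and SD of 3 libraries in black. P2ry10b is the receptor whose cre libraries all lie above the wt libraries, Gpr183 the one whose cre libraries all lie below, and the other 8 overlap.

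Genes that make, degrade or relay these lipids were read from 8 lists. Over the 8 lists, 94 genes were tested in B1b cells. Of these, 0 passed as higher and 1 as lower (edgeR, adjusted over all genes), against 0.486% and 0.222% of all genes. That gene was Cd69, whose protein binds S1pr1 and keeps it from the cell surface, at 130 ± 5.59 CPM in wt and 77.0 ± 18.4 CPM in cre (SD, n = 3 each; edgeR adjusted p = 0.0108). It is also an activation marker. The other 6 genes of lymphocyte egress did not pass, among them Klf2, a transcription factor that drives S1pr1, at -0.07 on the log2 scale (interval from -0.23 to 0.09).

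For sphingosine 1-phosphate metabolism, 12 of 17 tested genes were above 0 and 0 passed (edgeR), with a median log2 fold change of 0.05. Sgpp1, a phosphatase of the lipid, stood at 88.6 ± 5.2 CPM in wt and 114.2 ± 3.34 CPM in cre, and Asah2, a ceramidase, at 9.13 ± 0.902 and 15.7 ± 0.771 CPM (SD, n = 3 each). Both missed the threshold with groups that did not overlap (edgeR adjusted p = 0.069 and 0.0758). The lists of oxysterol, endocannabinoid and lysophosphatidylserine enzymes held 4, 8 and 6 tested genes, of which 0 passed in each (edgeR).

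Of 17 other lipid-sensing receptors tested, 0 passed (edgeR), 7 were above 0 and 10 below. Ptger1, a prostaglandin E receptor, stood at 107.6 ± 5.08 CPM in wt and 91.6 ± 7.55 CPM in cre (SD, n = 3 each; edgeR adjusted p = 0.288). The scarce Ptgir, the prostacyclin receptor, at 0.656 ± 0.607 and 2.71 ± 0.328 CPM, and Cysltr1, a leukotriene receptor, at 1.72 ± 0.538 and 3.79 ± 0.964 CPM, were higher in each cre library and also missed (edgeR adjusted p = 0.219 and 0.326). Of 30 G proteins, kinases, arrestins and RGS proteins tested, which carry or end the receptors' signals, 0 passed (edgeR) and the median log2 fold change was -0.05. All 5 tested chemokine receptors of B cell positioning were below 0 with 0 passing, and their median was -0.26. Cxcr5, which leads B cells to follicles, was lowest in p among them, at 1471 ± 56.1 CPM in wt and 1241 ± 44.5 CPM in cre (SD, n = 3 each; edgeR adjusted p = 0.121). Markers of conventional B-2 cells, of which Cxcr5 is 1, also had a lower sum in each cre library, as had Gpr183 its level. The 4 markers summed to 2139 to 2326 CPM in wt and 1956 to 2035 CPM in cre, 3 of 4 were below 0 and 0 passed (edgeR). Fcer2a, the low-affinity IgE receptor, stood at 95.5 ± 27.2 and 49.96 ± 6.48 CPM without overlap (SD, n = 3 each; edgeR adjusted p = 0.129). The part of B-2 cells in these values was not tested. Without adjustment, 1563 genes or 13.3% had a p under 0.05 in B1b cells, and so had 3 of the 10 receptors, P2ry10b, Gpr183 and S1pr3.

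In the aortas the question was whether the receptors differ in the vessel wall of mice with CD40-deficient B cells. None of the 9 receptors that passed the filter on low counts passed the test, by edgeR, DESeq2 or limma-voom, and the number with an unadjusted p under 0.05 was 0 by edgeR, 0 by DESeq2 and 1 by limma-voom. Of these 9, 4 lay above 0, against 50.2% of all genes, and their median log2 fold change was -0.17. Of all 13364 genes tested, 0.015% passed as higher and 0% as lower by edgeR, and 12.6% had an unadjusted p under 0.05. Heart muscle markers summed to 560 to 2500 CPM in wt and 647 to 6270 CPM in cre aortas, with 6 of 6 above 0, 0 passing (edgeR) and a median log2 fold change of 2.10. Fibroblast markers summed to 13600 to 19200 CPM in wt and 9110 to 15200 CPM in cre, with 5 of 5 below 0, 0 passing (edgeR) and a median of -0.50. The part of either tissue in the aortic values was not tested. In bulk tissue, fewer cells of a type and less RNA per cell cannot be told apart.

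S1pr1, which in the vessel wall marks endothelium, stood at 76.6, 90.8, 73.8, 77.8 and 133.3 CPM in wt and 93.1, 75.2, 76.4, 105.3 and 118.3 CPM in cre. Wild-type replicate 5 was the highest library and the groups overlapped (log2 fold change 0.07, interval from -0.33 to 0.46, edgeR adjusted p = 0.903). Endothelial markers summed to 1899 CPM in that library and to 1023 to 1438 CPM in the other wt aortas. In cre replicate 3 they summed to 1723 CPM beside 76.4 CPM of S1pr1, and in cre replicate 5 to 1944 CPM beside 118.3 CPM. Their part in the S1pr1 level was not tested. Without wt replicate 5 the log2 fold change was 0.24 (edgeR adjusted p = 0.541). S1pr2 stood at 44.9, 41.2, 54.7, 54.9 and 35.97 CPM in wt and 38.4, 41.9, 36.5, 40.0 and 49.7 CPM in cre, also overlapping (log2 fold change -0.17, interval from -0.50 to 0.15).

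S1pr3 stood at 37.9, 27.5, 32.3, 44.8 and 15.9 CPM in wt and 30.3, 62.3, 31.8, 54.2 and 38.2 CPM in cre. The 2 highest libraries were cre and the lowest was wt, but the groups overlapped (log2 fold change 0.41, interval from -0.15 to 0.98, edgeR adjusted p = 0.532). The test of the difference between its effects in B1b cells and in aortas gave -1.11 on the log2 scale (interval from -2.05 to -0.17), which missed the threshold over all genes (edgeR adjusted p = 0.376).

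The receptors other than S1pr1, S1pr2 and S1pr3 were at or below 16.24 CPM in each aorta. Gpr183 stood at 7.92, 13.2, 11.6, 12.5 and 7.41 CPM in wt and 9.61, 8.02, 5.46, 8.78 and 9.13 CPM in cre (log2 fold change -0.37, interval from -0.92 to 0.18). Cnr2 ran from 4.03 to 16.2 CPM over all 10 aortas, P2ry10 from 0.447 to 7.41 CPM and Gpr34 from 0.617 to 11.9 CPM, with overlapping groups in each. S1pr4 ran from 0.493 to 4.32 CPM in 9 aortas and stood at 10.48 CPM in cre replicate 2. That library also had the highest sum of B cell markers, 134 CPM, and the fewest counts, and without it the log2 fold change of S1pr4 moved from 0.07 to -0.60.

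P2ry10b was at 4.56, 2.01, 4.93, 3.55 and 4.76 CPM in wt aortas and 2.96, 0, 0.712, 1.89 and 3.56 CPM in cre aortas. The 0 of cre replicate 2 allows up to 1.85 CPM (3 counts). The groups overlapped and the log2 fold change was -0.95 with an interval from -2.07 to 0.17 (edgeR adjusted p = 0.47). The difference between its effects in B1b cells and in aortas was 1.46 on the log2 scale (interval from 0.51 to 2.41), and it did not pass over all genes by edgeR (adjusted p = 0.27). DESeq2 gave 1.51 with an adjusted p = 0.0195 for the same term.

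Gpr174 fell under the filter on low counts in the aortas. Its counts there were 11, 8, 6, 1 and 7 in wt and 3, 0, 1, 0 and 2 in cre, and the groups overlapped. It entered the fit over all 16 libraries only through its level in B1b cells, so no difference between the tissues is read from it. Over all genes 0.0199% passed the test of that difference by edgeR and 11.1% had an unadjusted p under 0.05. The receptors P2ry10b and S1pr3 had an unadjusted p under 0.05 and did not pass by edgeR.

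**Figure D3:**
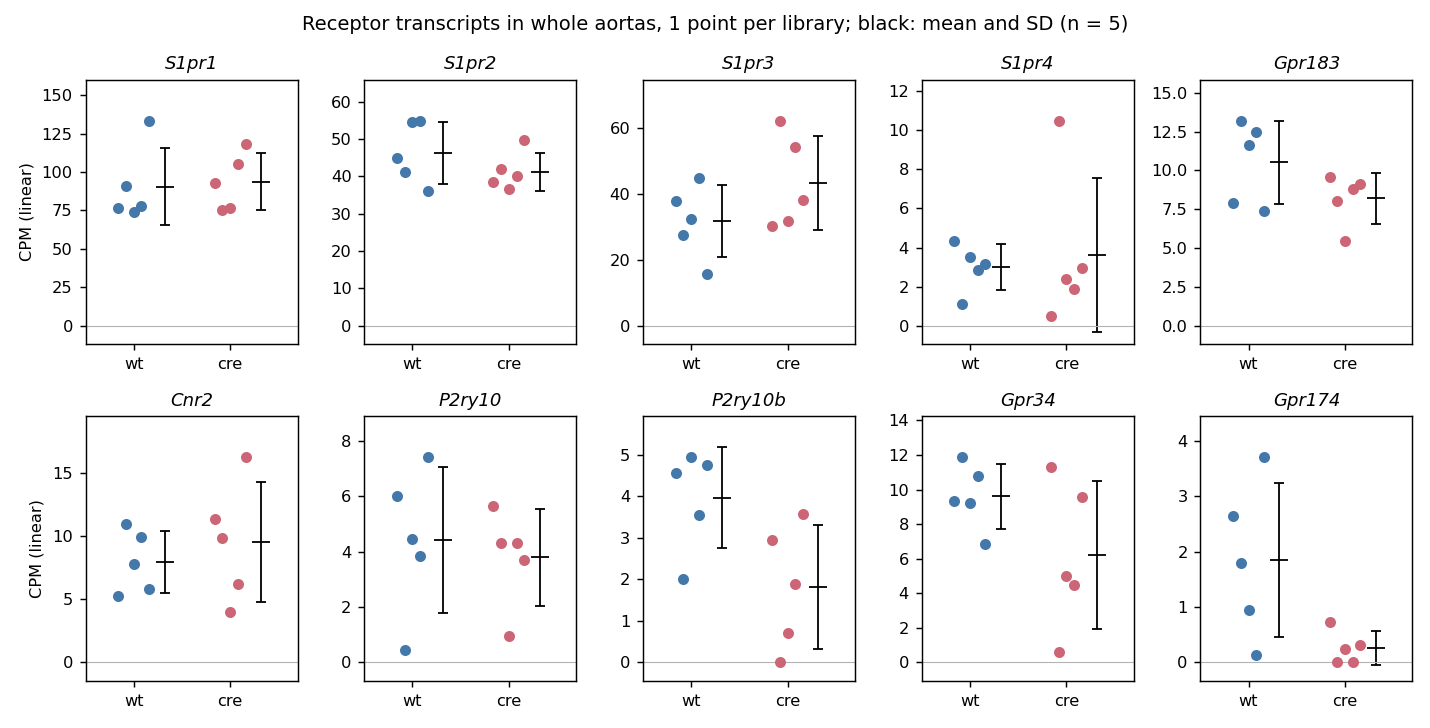
Each panel shows 1 receptor in whole aortas, with CPM on a linear axis that includes 0, 1 point per library in blue (wt) and red (cre), and the mean and SD of 5 libraries in black. The groups overlap for all 10 receptors, S1pr4 has 1 high cre library at 10.48 CPM, and Gpr174 lies at 3.70 CPM or less.

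**Figure D4:**
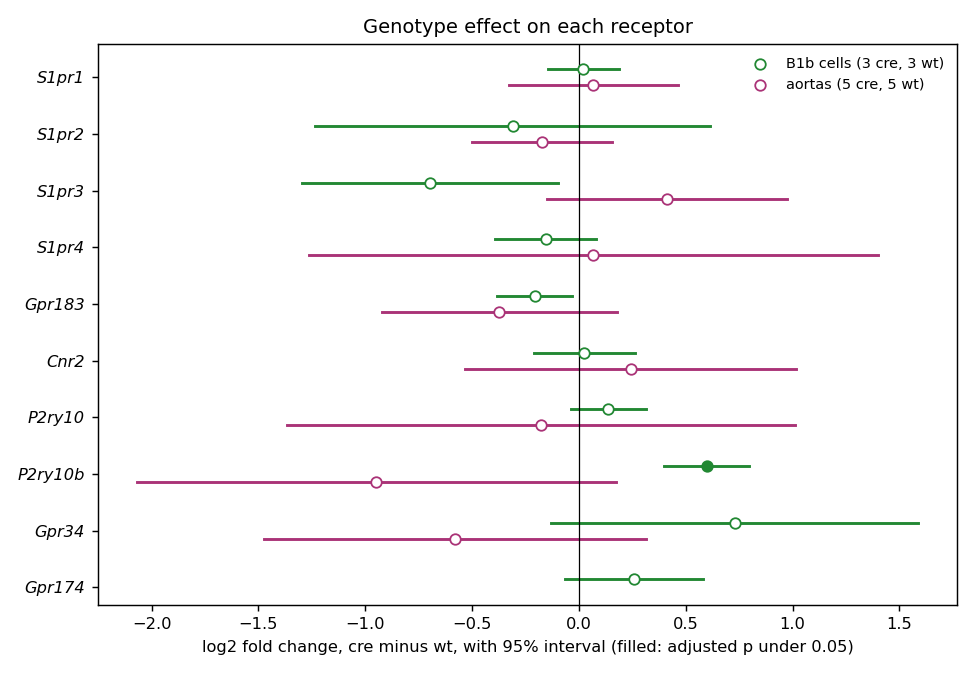
Points are log2 fold changes, cre minus wt, and lines their 95% intervals, in green for B1b cells and purple for aortas, with Gpr174 untested in aortas. The filled point, P2ry10b in B1b cells at 0.60, is the one with an adjusted p under 0.05, and the aortic intervals all include 0.

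In the aortas 107 genes of the 8 lists were tested and 0 passed, against 0.015% of all genes (edgeR, adjusted over all genes). Napepld, which makes endocannabinoid-like amides, stood at 95.4 ± 14.5 CPM in wt and 54.8 ± 11.25 CPM in cre (SD, n = 5 each), with groups that did not overlap (log2 fold change -0.80, edgeR adjusted p = 0.156). Lpcat3, an acyltransferase of lysophospholipids, stood at 69.05 ± 5.96 and 85.5 ± 7.02 CPM, also without overlap (edgeR adjusted p = 0.315). Groups did not overlap for 1.65% of all genes in the higher and 1.27% in the lower direction, and for 0 of the 9 receptors.

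Compared per length, as CPM per kilobase of transcript, the order of the receptors differed between the tissues. In wt B1b cells S1pr1 led at 192.1 ± 15.0 (SD, n = 3), above P2ry10 at 73.3 ± 2.44 and Gpr183 at 66.1 ± 4.82, whose libraries overlapped with each other. S1pr4 followed at 54.7 ± 3.30 and P2ry10b at 26.1 ± 2.31, each apart from its neighbours. Cnr2 at 17.1 ± 1.17 and Gpr174 at 14.5 ± 3.98 overlapped, and S1pr3, Gpr34 and S1pr2 came last between 1.35 and 2.83 with overlapping neighbours. The Gpr174 level, and so its overlap with Cnr2, rests on 3588 bases. Another Gpr174 transcript, of 4614 bases, had the same counts in each library and would give a lower level per length. Whether Cnr2 and Gpr174 overlap on that length was not examined. In cre B1b cells P2ry10b reached 39.7 ± 2.31 CPM per kilobase and overlapped with S1pr4 at 49.0 ± 8.97.

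In wt aortas S1pr1 again led, at 29.9 ± 8.20 CPM per kilobase (SD, n = 5), apart from S1pr2 at 16.5 ± 2.99, which was apart from S1pr3 at 7.10 ± 2.46. From S1pr3 down to Gpr174 at 0.514 ± 0.389 each receptor overlapped with the next in order. The S1pr2 level rests on 2803 bases, the part of its GENCODE transcript inside the RefSeq gene. With all 6394 bases, an alternative chosen after seeing the data, it was 7.25 ± 1.31 in wt aortas and overlapped with S1pr3, and 0.593 ± 0.131 in wt B1b cells, still last.

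Between wt libraries of the 2 tissues, 7 receptors were higher in each B1b library than in each aorta, which held for 33.6% of 15091 genes. They were S1pr1, S1pr4, Gpr183, Cnr2, P2ry10, P2ry10b and Gpr174, with fitted fold differences from 6.58 for S1pr1 to 52.0 for P2ry10. Gpr174 passed the filter on low counts only through its level in B1b cells. Its place among the 7, here and in cre libraries, is not read as a difference. S1pr2 and Gpr34 were lower in each wt B1b library than in each wt aorta, as were 36.9% of genes, and S1pr3 overlapped. S1pr2 was 12.0-fold higher in wt aortas than in wt B1b cells. In cre libraries the same 7 were higher without overlap (31.2% of genes), S1pr2 and S1pr3 were lower (38% of genes), and Gpr34 overlapped.

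**Figure D5:**
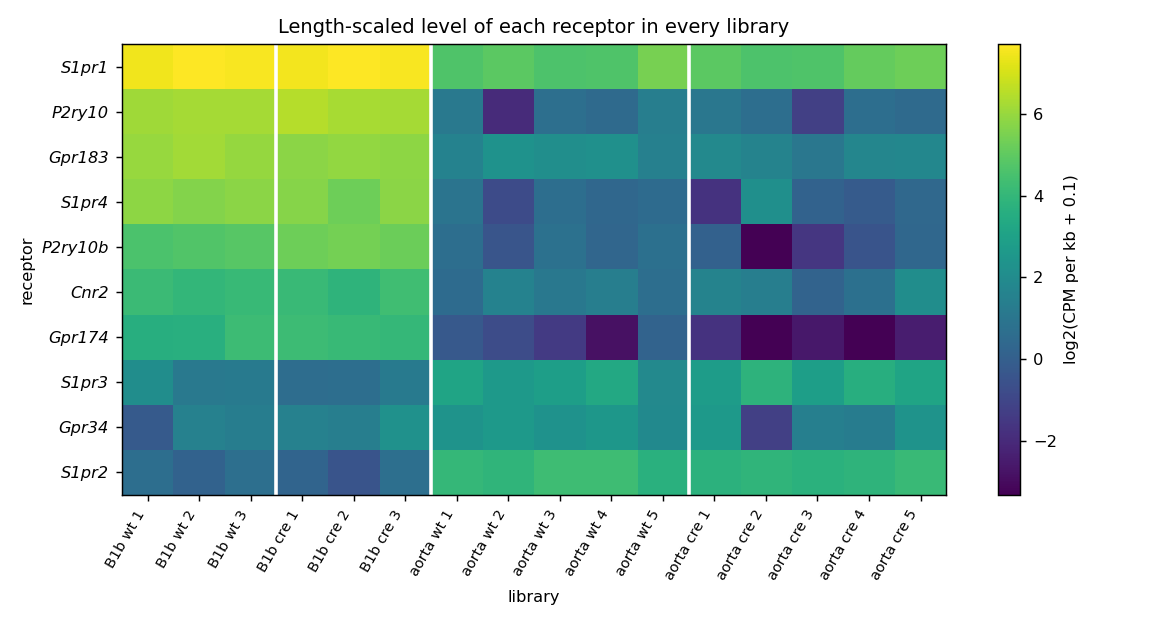
Colour gives log2(CPM per kilobase + 0.1) of each receptor (rows, ordered by their mean in wt B1b cells) in each of the 16 libraries (columns, grouped by tissue and genotype). S1pr1 is bright in all libraries. S1pr4, Gpr183, Cnr2, P2ry10 and P2ry10b are bright in B1b cells and dark in aortas, and S1pr2 shows the opposite pattern. Gpr174 fell under the filter on low counts in aortas, so no difference between the tissues is read from its row.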

How the data were processed

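The authors deposited a table of raw counts, 1 row per RefSeq transcript and 1 column per library, not normalized. Columns were joined to samples by title. Per the labels' protocols, B1b cells were sorted from peritoneal lavage, aortas were frozen, and a KAPA mRNA Hyperprep kit served for library preparation. The submitters' processing notes name mm10, STAR 2.5.2b and CASAVA 1.8.2. How reads were counted, on which annotation and with which strand setting, is not given in the sources used here. Of 35745 transcripts, 117 had no name in RefSeq or GENCODE M21 and held 0.24% to 2.5% of counts. They stayed in as entries of their own.

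The transcript of highest total count was kept per gene, the first by accession where totals were equal. Each tissue was fitted with edgeR 4.0.16 (TMM, filterByExpr, robust quasi-likelihood test) in R 4.3.3, and the difference between tissues with an interaction term over all 16 libraries. Benjamini-Hochberg adjustment ran over all tested genes, and an adjusted p under 0.05 passed. DESeq2 1.42.0 and limma 3.58.1 were alternatives, and the scripts were tested on simulated data. Lengths are those of GENCODE M21 transcripts inside the RefSeq span, and promoter windows come from RefSeq (GRCm38.p6). Replicates differed by far more than counting noise (chi-square divided by its degrees of freedom, 5.12 to 45.3).

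The members and lists were chosen with earlier results of these data known. All receptors are named, with list genes past the threshold or up to 3 of smallest p per list. A gene of the sort and B cell lists is not reported here.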

Additional observations from a re-analysis of the deposited data

Results flagged for a closer look

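In groups of 5 aortas, a receptor's highest or lowest library was set against the others by Dixon's ratio, over 20 groups. Chance alone marks about 1 in 20. S1pr1 in wt replicate 5 stood at 133.3 CPM, away from 73.8 to 90.8 CPM in the other wt aortas. S1pr4 in cre replicate 2 stood at 10.48 CPM, away from 0.493 to 2.94 CPM in the other cre aortas.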

How the results depend on the processing

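P2ry10b kept its direction in B1b cells in all alternatives (log2 fold change from 0.54 to 0.67) and missed the threshold only with the contrast from the 4-group fit, at 0.59, where 0 receptors and 0 genes passed against 1 and 83. Calls in B1b cells numbered 197 by DESeq2, 327 without a filter and 11 with counts summed over transcripts, and 35 to 103 when 1 library was left out (35 without wt replicate 1, 36 without cre replicate 1, 42 without cre replicate 2). In aortas 2 genes passed. The count was 204 by DESeq2, 1 by limma-voom, 1 with the transcript of lowest count, 47 from the 4-group fit, 92 without the 2 libraries under 2000000 counts, and 0 to 14 without 1 library. No receptor passed there in any of these. For the difference between tissues 3 genes passed, 173 by DESeq2 and 1 to 7 without 1 library. DESeq2 alone called 2 receptors, against 0: P2ry10b at 1.51, and Gpr174, which failed the filter on low counts in aortas and was tested only through its level in B1b cells. With the whole GENCODE transcript the length-scaled S1pr2 level in wt aortas was 7.25 in place of 16.5. The 7 receptors higher in B1b cells, which include Gpr174 despite its low counts in aortas, stayed 7 under each scaling and transcript choice. No difference between the tissues is read from Gpr174. No paired analysis of genotypes was possible because wt and cre libraries of a tissue share no number in their titles. Some B1b libraries and aortas of equal number differ in genotype, so those do not come from the same animal. For those of equal number and equal genotype the labels do not say. In aortas, counts of 0 to 32 per library for P2ry10, P2ry10b, S1pr4 and Gpr174 limit what could be detected.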
